A study of Mus musculus with 7 samples.

Results

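The 39 protein-coding Hox genes were described in the cervical spinal cord of 8 weeks old mice with and without the long non-coding RNA Neat1. They were taken as every protein-coding gene of the GENCODE M21 annotation whose symbol is Hox followed by a cluster letter (a to d) and a paralogue number, and all 39 were rows of the deposited count table, which holds 55487 genes. Poly(A)-selected RNA was sequenced from 4 Neat1-KO; hSOD1G93A mice (Neat1 -/-) and 3 Neat1-WT; hSOD1G93A mice (Neat1 +/+), called Neat1-KO and Neat1-WT libraries below and numbered as in the labels (1 to 4, and 2 to 4). Every mouse of both groups carried hSOD1G93A, a mutant human SOD1 transgene used as a model of amyotrophic lateral sclerosis, and no mouse without the transgene was among the 7. The genotypes came from matings of Neat1 +/- males with the transgene to Neat1 +/- females. The labels give neither the sex of each mouse nor the segments at which the cervical cord was cut.

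Hox genes encode homeodomain transcription factors and lie in 4 clusters, in which the order of the genes along the chromosome mirrors the order of their expression along the body axis. Low paralogue numbers begin in the hindbrain, middle numbers mark the cervical and forelimb (brachial) cord, and high numbers mark the lumbar and sacral cord. In motor neurons, Hoxa5 and Hoxc5 act in the phrenic column of the cervical cord, Hoxc6 and Hoxc8 act at forelimb levels, and Hoxc9 acts at thoracic levels, where it represses the forelimb Hox genes. Much of this positional code is still transcribed in the adult cord, so a block of cord carries a Hox profile that depends on where it was cut.

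On mm10, the genome build of the deposited counts, the Hoxa cluster held 11 members on the minus strand of chromosome 6 (chr6:52155590-52260880, 105.3 kb). The other clusters ran on the plus strand. Hoxb held 10 members (chr11:96194316-96368256, 173.9 kb), Hoxc held 9 (chr15:102921103-103036852, 115.8 kb) and Hoxd held 9 (chr2:74668310-74765142, 96.8 kb). In each cluster the highest paralogue number lies at the upstream end in the direction of transcription and the lowest at the downstream end.

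Total counts ran from 19661878 to 26031517 per library, and the 39 Hox genes together took between 0.0932% and 0.107% of them. Neat1, the deleted gene, stood at 5.09, 5.40, 5.52 and 4.04 CPM (read counts scaled by library totals with TMM factors) in Neat1-KO libraries 1 to 4 and at 86.2, 80.5 and 118 CPM in Neat1-WT libraries 2 to 4. Every library thus matched its label (log2 fold change -4.25, SE 0.15, adjusted p = 1.5e-08 by edgeR's quasi-likelihood test). The forebrain and midbrain markers Otx1, Otx2, Six3 and Emx2 were at 0 in all 7 libraries, as was the cerebellar granule cell gene Gabra6. Other genes of these lists had counts, with Lhx2 at up to 0.648 CPM, Dmbx1 at up to 21 counts and the cerebellar genes Cbln3, Neurod1 and Barhl1 at up to 1.63, 2.04 and 1.68 CPM.

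The cord carried a broad middle band of Hox expression. Levels below are CPM per kilobase of merged exon, the scale on which Hox levels are compared between genes. Where a gene of another list is said to have the most counts, that is its read count and not its level. Hoxb8 had the highest level, 95.8 ± 10.3 (SD, n = 7), between 86.8 and 116 in single libraries. It stood clear of Hoxc8 (38.2 ± 6.60), Hoxb6 (32.8 ± 3.84) and Hoxa5 (29.9 ± 3.10), whose library values overlapped from each gene to the next. The order continued with Hoxa7 at 28.1, Hoxb9 at 26.7, Hoxb5 at 22.8, Hoxd8 between 17.9 and 22.0, Hoxb7 at 19.6 and Hoxc6 at 14.6. Among all neighbours in the order of the 27 genes above the detection limit, Hoxb8 and Hoxc8, Hoxd1 and Hoxd4, and Hoxd4 and Hoxd3 did not overlap, and the other neighbours did.

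Summed by paralogue number, the level rose from 6.96, 8.61 and 22.2 for paralogues 2, 3 and 4 to 60.8 for paralogue 5. It stayed at 59.4 and 47.6 for paralogues 6 and 7, peaked at 154 for paralogue 8 and was 33.6 for paralogue 9. The sums cover unequal numbers of genes and are not levels per gene. Paralogues 2 and 7 have 2 members, paralogues 3, 5, 6 and 8 have 3, and paralogues 4 and 9 have 4. Paralogue 10 was at 0.557, paralogues 11 and 12 were at 0 and paralogue 13 was at 0.0107. Paralogue 8 alone held 38.9% of the summed Hox level and paralogue 9 held 8.50%, as means over the 7 libraries.

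**Figure D1:**
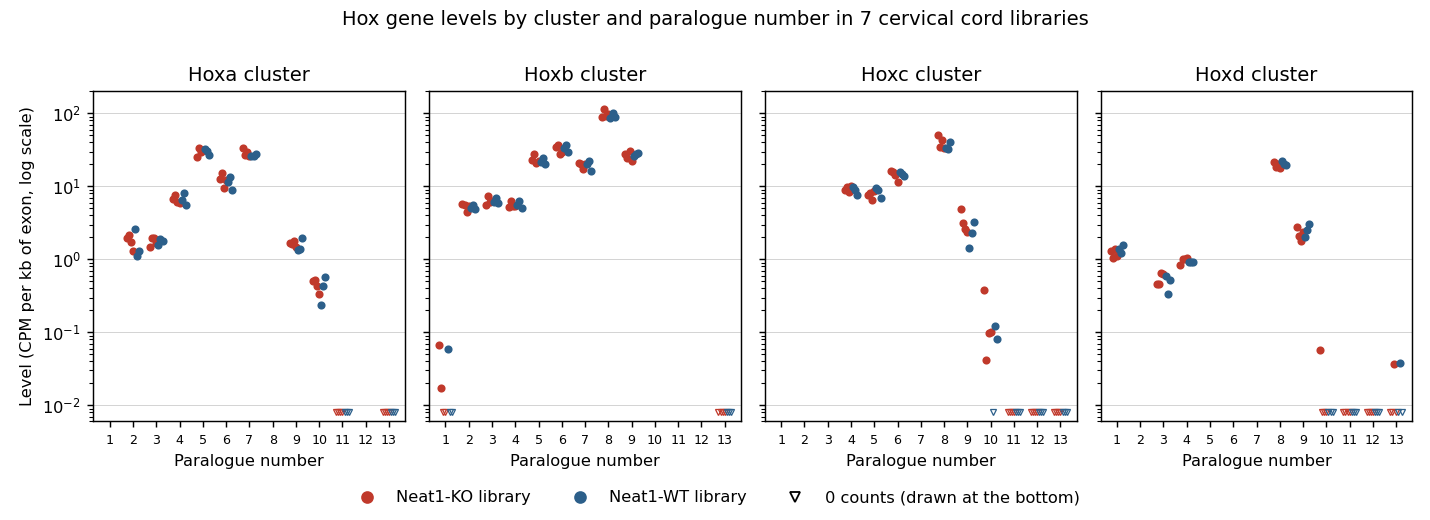
Level of 38 Hox genes in CPM per kilobase of exon (log axis) against its paralogue number, with 1 panel for each cluster and 1 point for each library (red Neat1-KO, blue Neat1-WT). Open triangles at the bottom are libraries with 0 counts. Levels reach their top at paralogue 8 in Hoxb (95.8), Hoxc (38.2) and Hoxd (17.9 to 22.0), and drop to few or no counts from paralogue 10 or 11 on.

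The clusters contributed unequally. Hoxb carried between 51.5% and 56.9% of the summed Hox level in the 7 libraries, Hoxa 20.3% to 21.5%, Hoxc 16.6% to 21.6% and Hoxd 5.41% to 7.03%. Within Hoxd the rostral genes were low, with Hoxd1 at 1.29, Hoxd3 at 0.523 and Hoxd4 at 0.947, while Hoxd8 was between 17.9 and 22.0. Hoxd3 and Hoxd4 share 62.3% and 52.3% of their exons with same-strand genes, each other among them, so reads of the pair may be split or lost and both values are uncertain. Hoxb3 is uncertain in another way, since 52.9% of its exon sequence lies opposite the antisense gene Hoxb3os and the strand setting of the counting is not given in the sources used here.

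The caudal limit of expression was sharp. A member was taken as detected where it had over 3 counts in every library, 3 counts being about the one-sided 95% upper limit for a count of 0 (0.115 to 0.153 CPM at these depths, where the two-sided Poisson interval of a count of 0 reaches 3.69 counts). By this measure 27 of 39 members were detected, 9 of Hoxa, 8 of Hoxb, 5 of Hoxc and 5 of Hoxd. The highest paralogue detected was Hoxa10 in the Hoxa cluster, Hoxb9 in Hoxb, Hoxc9 in Hoxc and Hoxd9 in Hoxd.

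Beyond those genes almost nothing was counted. Hoxa11, Hoxa13, Hoxb13, Hoxc11, Hoxc12, Hoxc13, Hoxd11 and Hoxd12 were at 0 in all 7 libraries. Hoxd10 had 2 counts in Neat1-KO library 1 and 0 elsewhere, and Hoxd13 had 2 counts in Neat1-KO library 3, 2 in Neat1-WT library 3 and 0 elsewhere. At the rostral end, Hoxb1, a gene of the hindbrain, had between 0 and 3 counts. The last of the 12 undetected members, Hoxc10, a lumbar gene, had 14, 2, 4 and 5 counts in Neat1-KO libraries 1 to 4 and 0, 5 and 3 in Neat1-WT libraries 2 to 4. Neat1-KO library 1 was the highest and Neat1-WT library 2 the lowest, and the other libraries of both genotypes overlapped. Hoxc10 shares 166 bases of exon with a long annotated transcript of Hoxc5, a gene expressed here.

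The drop was as steep between direct neighbours. In the Hoxd cluster, Hoxd8, Hoxd9 and Hoxd10 lie side by side within a short stretch of chromosome 2 and had levels of 17.9 to 22.0, 1.78 to 3.03 and 0 to 0.0566 CPM per kilobase. Their upstream sequences are shown because they flank the step from transcribed to silent genes. Each is 200 bases, from 250 to 51 bases before the RefSeq start (RefSeq, GRCm38.p6, plus strand), at chr2:74704365-74704564, chr2:74697513-74697712 and chr2:74691641-74691840, with CG dinucleotides in capitals.
Hoxd8: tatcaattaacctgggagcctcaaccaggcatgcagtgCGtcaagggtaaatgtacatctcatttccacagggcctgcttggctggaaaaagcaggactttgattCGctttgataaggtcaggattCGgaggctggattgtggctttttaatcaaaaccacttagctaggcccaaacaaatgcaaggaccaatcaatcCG
Hoxd9: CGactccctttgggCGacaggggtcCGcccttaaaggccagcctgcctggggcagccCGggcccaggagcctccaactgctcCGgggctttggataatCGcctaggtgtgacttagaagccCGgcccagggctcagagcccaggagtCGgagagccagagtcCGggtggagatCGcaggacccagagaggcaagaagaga
Hoxd10: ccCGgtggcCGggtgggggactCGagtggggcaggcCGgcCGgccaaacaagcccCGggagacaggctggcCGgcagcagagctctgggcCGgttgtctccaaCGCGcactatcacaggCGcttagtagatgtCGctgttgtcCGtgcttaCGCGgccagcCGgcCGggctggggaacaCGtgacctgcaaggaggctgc
The Hoxd8 stretch holds 4 CG dinucleotides, that of Hoxd9 holds 10 and that of Hoxd10 holds 18, so along these 3 genes the CG number rose as the level fell. Over all 32851 promoter rows of that table the median is 4, and over the 24 rows that matched 22 of the 39 Hox genes it is 11. The letters TGATTNAT, a pattern bound by Hox and Pbx proteins together, and TATAAA, the letters of the TATA box, were searched on both strands. Neither occurred in any of the 3 stretches. The stretches end 51 bases before the start, so the bases nearest to it were not searched. Whether these genes have a TATA box was therefore not tested. The patterns occur in 2.34% and 9.14% of all stretches of this length and position. Of the 24 Hox rows, 2 (8.33%) and 3 (12.5%) hold them, too few to compare the rates.

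The genes that mark cervical position were all present, and their levels in single libraries were as follows. Hoxc4, a gene of the cervical cord, had 23.1, 24.9, 21.7 and 26.2 CPM in Neat1-KO libraries 1 to 4 and 25.2, 22.6 and 19.8 CPM in Neat1-WT libraries 2 to 4. Hoxa5, of the phrenic column, had 47.2, 63.7, 54.8 and 59.2 CPM against 60.3, 57.7 and 50.2 CPM. Hoxc6, of forelimb levels, had 39.4, 37.8, 34.7 and 28.1 CPM against 37.8, 35.3 and 33.3 CPM. The Neat1-WT libraries lay inside the range of the Neat1-KO libraries for Hoxa5 and Hoxc6, and for Hoxc4 only Neat1-WT library 4 lay below it. None of the 3 genes varied by more than 1.40-fold over the 7 libraries.

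The caudal genes of the Hoxc cluster varied more. Hoxc8, at the caudal part of the forelimb cord, had 142, 97.9, 121 and 93.9 CPM in Neat1-KO libraries 1 to 4 and 94.2, 93.5 and 115 CPM in Neat1-WT libraries 2 to 4. Neat1-KO libraries 1 and 3 and Neat1-WT library 4 were high, and the other 4 were close together. Hoxc9, the thoracic gene, had 12.0, 7.54, 6.40 and 5.84 CPM in the Neat1-KO libraries and 3.49, 5.56 and 7.85 CPM in the Neat1-WT libraries, from 234 counts at the highest to 77 at the lowest. Its highest library was Neat1-KO 1 and its lowest Neat1-WT 2, a 3.45-fold range, and the genotypes overlapped because Neat1-WT library 4 stood above 3 of the 4 Neat1-KO libraries.

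**Figure D2:**
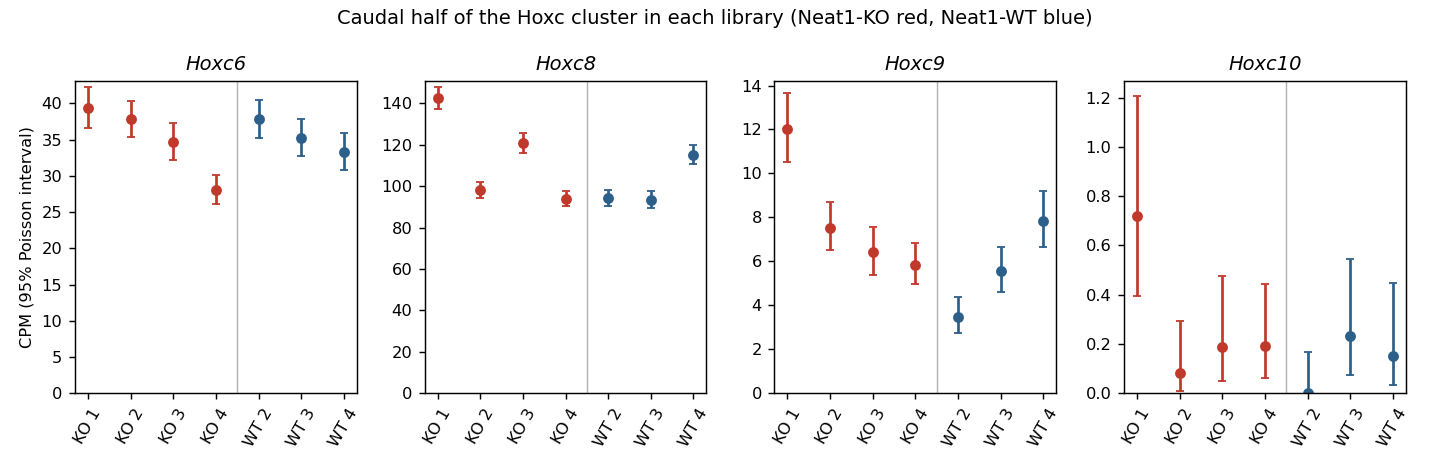
CPM of Hoxc6, Hoxc8, Hoxc9 and Hoxc10 in each library (red Neat1-KO, blue Neat1-WT, linear axes from 0), with 95% Poisson intervals that cover counting error only. Hoxc9 spans 3.49 to 12.0 CPM and is highest in Neat1-KO library 1 and lowest in Neat1-WT library 2, as is Hoxc10, while Hoxc6 spans only 28.1 to 39.4 CPM.

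The spread of Hoxc9 was beyond counting error, as was that of most genes. The variance of its counts was 21.2 times that of counting error. The same measure was 68.2 for Hoxc8 and 67.6 for Hoxb8, with medians of 6.51 over the tested Hox genes and 4.13 over all tested genes. The level per kilobase of Hoxc9 over that of Hoxc6 needs no scaling between libraries. This ratio was highest at 0.302 in Neat1-KO library 1 (exact binomial 95% interval 0.260 to 0.350) and lowest at 0.0914 in Neat1-WT library 2 (0.0714 to 0.116). The other 5 libraries lay between 0.156 and 0.234. The ratio of Hoxc8 to Hoxc4 parted the libraries in another way, at 5.60, 5.05 and 5.28 in Neat1-KO libraries 1 and 3 and Neat1-WT library 4 and between 3.25 and 3.75 in the other 4. These intervals cover counting error only and do not include the differences between mice.

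Among the 25 tested Hox genes with at least 20 counts in every library, Hoxc9 and Hoxa2 varied more than 2-fold over the 7 libraries, and the other 23 varied between 1.23-fold and 1.92-fold. Of all 15683 tested genes with as many counts, 7.90% varied more than 2-fold. Hoxa2, the most rostrally expressed Hox gene of the hindbrain, had 3.44, 3.87, 3.11 and 2.33 CPM in Neat1-KO libraries 1 to 4 and 4.62, 1.96 and 2.35 CPM in Neat1-WT libraries 2 to 4. Neat1-WT library 2, the lowest for Hoxc9, was the highest for Hoxa2, and the Neat1-KO libraries lay inside the range of the Neat1-WT libraries.

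The last genes detected in the other clusters showed smaller or less certain differences. Hoxa10, a gene of lumbar levels, had only 32, 42, 30 and 29 counts in Neat1-KO libraries 1 to 4 and 17, 30 and 37 counts in Neat1-WT libraries 2 to 4. Hoxb9 had 71.8, 63.3, 78.1 and 56.8 CPM against 66.7, 72.0 and 72.7 CPM. Hoxd9 had 5.91, 4.43, 3.80 and 5.03 CPM against 4.39, 5.37 and 6.47 CPM. Neat1-WT library 2 was the lowest for Hoxa10, Neat1-KO library 4 was the lowest for Hoxb9 and Neat1-KO library 3 for Hoxd9, and the genotypes overlapped for each gene. At paralogue 9 the levels per kilobase differed widely between clusters, with means of 26.7 for Hoxb9, 2.86 for Hoxc9 and 2.37 for Hoxd9 and a range of 1.33 to 1.94 for Hoxa9.

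Next, the genotypes were compared to ask whether loss of Neat1 went with a change in the Hox profile. None of the 27 Hox genes that passed the filter on low counts was called higher or lower in Neat1-KO by edgeR (adjusted p under 0.1, with a log2 fold change beyond 0.58 in either direction), where the call rate over the 18449 genes tested was 0.0325% (0.0108% higher and 0.0217% lower). None had an unadjusted p under 0.05 either, against 4.64% of all genes, and DESeq2 also called 0 of the Hox genes, where it called 0.146% of all genes. For none of the 27 did the libraries of the genotypes separate without overlap, against 5.47% of all genes. Counts of 0 among 27 genes lie close to these background rates and show nothing particular to the Hox genes. Leaving out Neat1-KO library 1 and Neat1-WT library 2 together, an alternative added after the values were seen, also gave 0 Hox genes called, where 0.102% of all genes were called.

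The fold changes were small. Of the 27 log2 fold changes of Neat1-KO over Neat1-WT, 17 were above 0 and 10 below, with a median of 0.028, where the median of all tested genes was 0.0062. A total of 24 lay within 0.2 of 0 in either direction, and their standard errors ran from 0.086 to 0.33 over the 27 genes. The smallest unadjusted p was 0.106, for Hoxc9 in the edgeR fit, and no adjusted p was below 0.992. Under alternatives the unadjusted p of Hoxc9 was 0.00602 with no filter on low counts (adjusted p = 0.451, edgeR) and 0.0178 without Neat1-WT library 4 (adjusted p = 0.897, edgeR). A p above the threshold does not show that the genotypes are alike. For Hoxa10, with an SE of 0.33, a change of the called size was not detectable at this depth and number of mice. Standard errors were also large for Hoxa2 (0.29), Hoxc9 (0.28) and Hoxd3 (0.26). The smallest change detectable for the other genes was not worked out, so the lack of calls does not show that such changes were absent.

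**Figure D3:**
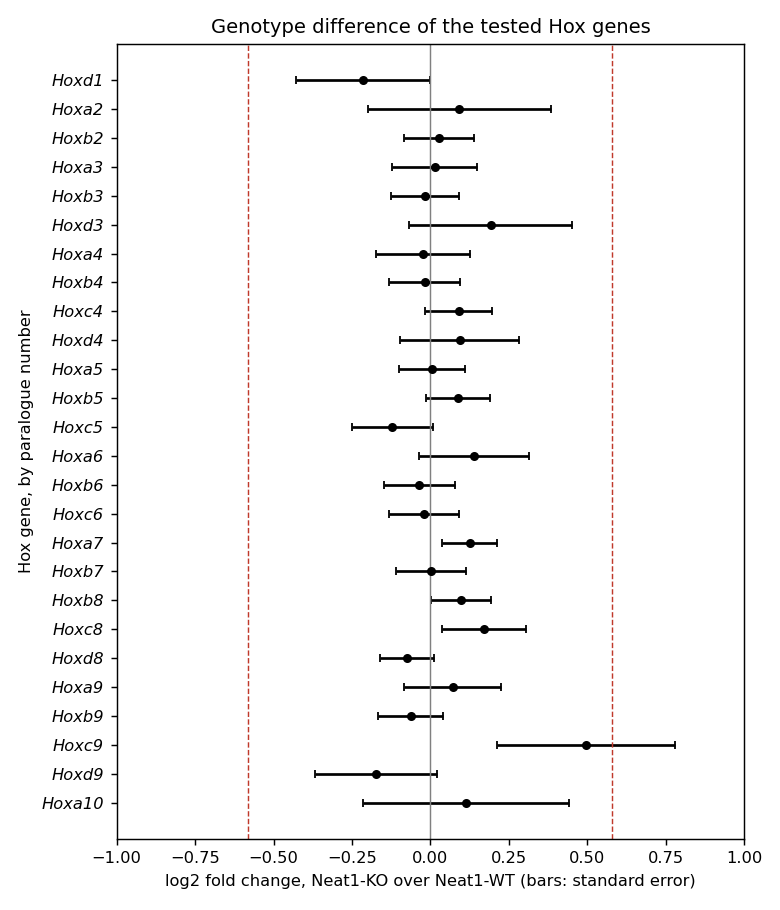
Log2 fold change of Neat1-KO over Neat1-WT (points) with its standard error (bars) for 26 of the 27 tested Hox genes, ordered by paralogue number. Red dashed lines mark the fold change needed for a call (0.58 in either direction). No point lies beyond them, and the one nearest is Hoxc9 at 0.50.

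Hoxc9 had the highest fold change, 0.50 on the log2 scale (SE 0.28, adjusted p = 0.992, exact two-sided permutation p = 0.314 over the 35 ways to split 7 libraries into 4 and 3, of which the smallest possible is 0.0286). The 4 Neat1-KO libraries averaged 7.95 ± 2.81 CPM (SD) and the 3 Neat1-WT libraries 5.63 ± 2.18 CPM (SD). The value moved with single libraries, to 0.23 without Neat1-KO library 1, 0.24 without Neat1-WT library 2 and 0.81 without Neat1-WT library 4. Without both Neat1-KO library 1 and Neat1-WT library 2 it was -0.02, and since these were left out as the highest and lowest for Hoxc9, a smaller difference had to follow. Hoxd1 had the lowest fold change, -0.22 (SE 0.21), and the smallest permutation p of the family (exact, 0.229). For the other position genes the log2 fold changes were 0.09 for Hoxc4 (SE 0.11), 0.00 for Hoxa5 (SE 0.11), -0.02 for Hoxc6 (SE 0.11) and 0.17 for Hoxc8 (SE 0.13). Because whole tissue was sequenced, fewer cells that express a gene and less RNA per cell cannot be told apart.

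Single libraries differed in which paralogues were high or low. Each gene's CPM was set against its own mean over the 7 libraries on the log2 scale. For the 5 tested genes of paralogues 9 and 10, all 5 stood above their mean in Neat1-KO library 1 (mean deviation 0.31) and in Neat1-WT library 4 (0.30), and all 5 stood below it in Neat1-WT library 2 (-0.44). For the 10 tested genes of paralogues 4 to 6 the picture was another one. All 10 were above their mean in Neat1-KO library 2 (0.18) and none in Neat1-WT library 4 (-0.19), while 1 of 10 was above in Neat1-KO library 3 (-0.11) and 8 of 10 in Neat1-WT library 3 (0.11). Low middle and high caudal paralogues occurred together only in Neat1-WT library 4, while high caudal paralogues alone were also seen in Neat1-KO library 1. For the 7 tested genes of paralogues 1 to 3 the mean deviations lay between -0.16 (Neat1-WT library 3) and 0.13 (Neat1-KO library 2), and for the 5 of paralogues 7 and 8 between -0.069 (Neat1-KO library 4) and 0.15 (Neat1-KO library 1). Over the 4 classes the mean deviations rose steadily along the paralogue numbers in Neat1-KO library 1, from -0.085 to 0.31. They fell steadily in Neat1-KO library 4 (0.043 to -0.17) and in Neat1-WT library 2 (0.07 to -0.44). They followed no steady order in Neat1-KO libraries 2 and 3 or Neat1-WT libraries 3 and 4. Genes of 1 library share its RNA and are not independent, and no test was made on these class means.

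**Figure D4:**
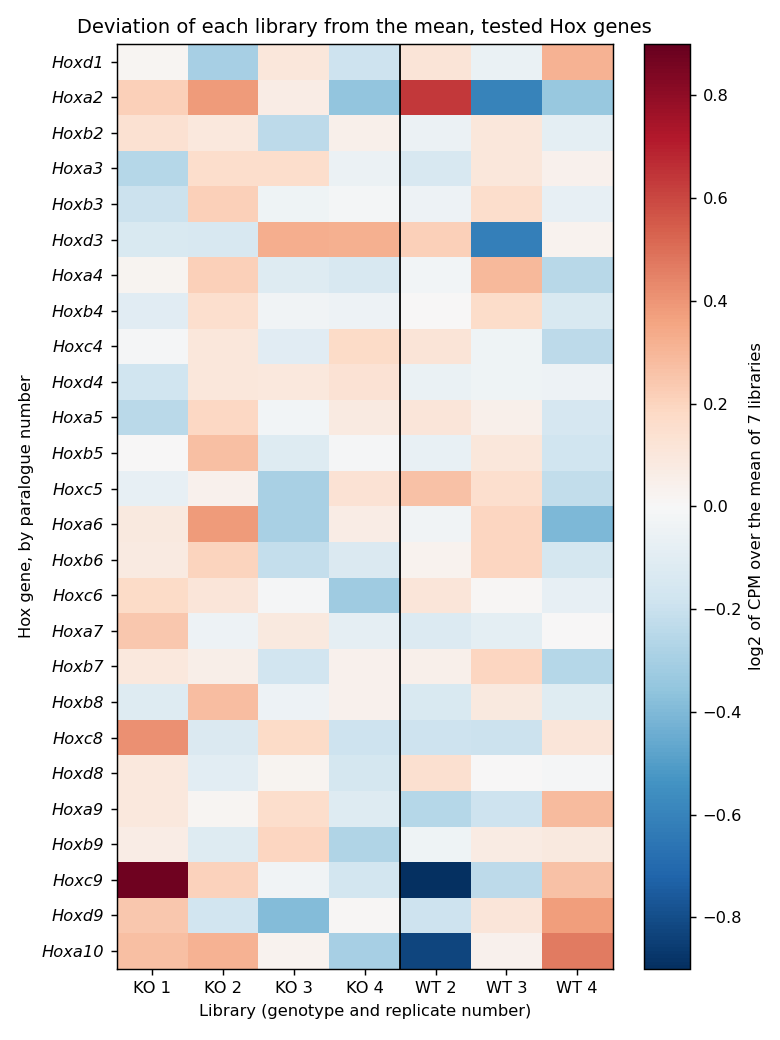
Log2 of each library's CPM over the mean of the 7 libraries (colour, red above and blue below the mean) for 26 of the 27 tested Hox genes, ordered from paralogue 1 at the top to paralogue 10 at the bottom, with the genotypes parted by a line. The 5 lowest lines (Hoxa9 to Hoxa10) are red in Neat1-KO library 1 and Neat1-WT library 4 and blue in Neat1-WT library 2, and the lines of paralogues 4 to 6 are red in Neat1-KO library 2 and blue in Neat1-WT library 4.

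As 1 value per library, the summed level per kilobase of paralogues 8 to 13 was divided by that of paralogues 4 to 7. Paralogue 8 made up most of the upper sum of this caudal index, with 38.9% of the summed Hox level against 8.50% for paralogue 9. Whether the index tracks the position of a block of cord was not tested. The index was 1.02, 0.957, 1.09 and 0.958 in Neat1-KO libraries 1 to 4 and 0.898, 0.937 and 1.10 in Neat1-WT libraries 2 to 4. Neat1-WT library 4 and Neat1-KO library 3 were the highest and Neat1-WT library 2 the lowest, a 1.22-fold range. The 4 Neat1-KO libraries averaged 1.01 ± 0.062 (SD) and the 3 Neat1-WT libraries 0.978 ± 0.107 (SD), and the genotypes overlapped. With the Hoxc cluster alone the index was 1.69, 1.12, 1.54 and 1.16 against 0.987, 1.10 and 1.55. The same 3 libraries, Neat1-KO 1, Neat1-KO 3 and Neat1-WT 4, were then between 1.54 and 1.69 and the other 4 between 0.987 and 1.16. Whether the blocks of cord were cut at different levels cannot be told apart from other differences between these mice, since the labels give no level.

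Other measures moved with some of these libraries. Neat1-KO library 1 and Neat1-WT library 4 had the lowest total counts, 19661878 and 19772073. The summed level of 7 meningeal and fibroblast markers was 85.7, 222, 181 and 169 CPM in Neat1-KO libraries 1 to 4 and 78.9, 123 and 235 CPM in Neat1-WT libraries 2 to 4, with Col1a2, a fibrillar collagen gene, holding the most counts. It was low both in Neat1-KO library 1, the highest for Hoxc9, and in Neat1-WT library 2, the lowest. The 6 skeletal muscle and bone markers summed to 17.1 CPM in Neat1-WT library 4, with Myh4, a fast muscle myosin, at 4.64 and Ckm, the muscle creatine kinase, at 3.31 CPM, and to between 3.90 and 5.84 CPM in the other 6. The part of these in the library differences of the Hox genes was not tested.

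The remaining marker lists overlapped between genotypes in their summed level, and none of their genes was called, against 0.0325% of all genes tested. The 6 hindbrain and brainstem markers summed to 0.873 to 2.78 CPM in Neat1-KO and 1.49 to 1.99 CPM in Neat1-WT, with the most counts in Egr2, which Schwann cells also express, and the serotonin genes Slc6a4 and Fev were at 0.0934 and 0.362 CPM at most. The forebrain and midbrain list summed to 7.09 to 10.2 CPM against 7.79 to 9.66 CPM and came mostly from En1 and En2. The cerebellar list summed to 92.0 to 131 CPM against 87.4 to 110 CPM, of which Pvalb, which spinal interneurons also express, made up most. The 8 dorsal root ganglion markers summed to 12.6 to 21.9 CPM against 16.5 to 21.2 CPM, with the nociceptor channel gene Scn10a at 0.255 CPM or less, and most of the sum came from Prrxl1, which dorsal horn neurons also express. The 5 blood genes summed to 5.80 to 12.5 CPM against 8.31 to 13.6 CPM, with the most counts in Hbb-bs.

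Of 6 spinal neuron markers, 3 had an unadjusted p under 0.05 in the edgeR fit, where 4.64% of all genes did. None was called, against 0.0325% of all genes tested. Slc5a7, the choline transporter of cholinergic neurons, had 113, 87.7, 141 and 119 CPM in Neat1-KO libraries 1 to 4 and 171, 126 and 160 CPM in Neat1-WT libraries 2 to 4 (log2 fold change -0.40, SE 0.14, adjusted p = 0.992). Prph, the intermediate filament peripherin, had a log2 fold change of -0.20 (SE 0.094). Slc6a5, the glycine transporter of inhibitory neurons, had 445, 478, 480 and 505 CPM against 413, 393 and 441 CPM (log2 fold change 0.20, SE 0.069, adjusted p = 0.992). The lowest Neat1-KO library was above the highest Neat1-WT library for Slc6a5, and the genotypes overlapped for the other 2. Lum, a proteoglycan gene of the meningeal list, and Acta1, skeletal muscle actin, also had an unadjusted p under 0.05 (log2 fold changes 0.66 and -1.45), the latter with 3.93 CPM in Neat1-WT library 4 and at most 1.07 CPM elsewhere.

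Hox factors bind DNA together with partner proteins. The TALE class holds such partners, and 11 of its genes (Pbx, Meis, Pknox and Tgif) were listed. All 11 were tested, 0 were called and 0 had an unadjusted p under 0.05 in the edgeR fit. Over all genes tested 0.0325% were called and 4.64% had such a p. Counts of 0 among 11 genes therefore show nothing particular to this list. The log2 fold changes of the 11 genes lay between -0.11 and 0.15 with a median of 0.0079.

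Genes that set or keep Hox expression were also examined. Of 19 regulators (Cdx factors, Polycomb and trithorax genes, retinoic acid genes, Gdf11 and the Tshz genes), 16 were tested, with a median log2 fold change of 0.024. Of these, 0 were called and 0 had an unadjusted p under 0.05 in the edgeR fit, against 0.0325% and 4.64% of all genes tested. Such counts of 0 lie close to the background and show nothing particular to the list. Cdx1, Cdx2 and Cdx4, which start the caudal Hox genes in the embryo, were at 0 in all 7 libraries. Tshz2, a zinc finger gene of the trunk, had the most counts, with 96.6, 132, 119 and 127 CPM in Neat1-KO libraries 1 to 4 and 108, 121 and 118 CPM in Neat1-WT libraries 2 to 4. A list of 7 genes covered motor columns and motor neurons more broadly. All 7 were tested and 0 called, against 0.0325% of all genes tested, with a median log2 fold change of -0.067. Chat, which makes acetylcholine and is also on the spinal neuron list, had the most counts. It had 33.7, 31.2, 34.8 and 36.4 CPM against 41.1, 32.5 and 35.2 CPM, and these are not values of a single motor column. Both lists overlapped between genotypes in their leading gene. Of the 16 tested regulators 2 did not overlap, where 5.47% of all tested genes did not, and both are named for that reason after their values were seen. Gdf11, a growth factor that promotes caudal Hox expression in the embryo, had 40.9, 42.4, 40.5 and 41.0 CPM in Neat1-KO libraries 1 to 4 and 45.3, 47.4 and 44.8 CPM in Neat1-WT libraries 2 to 4 (log2 fold change -0.15, SE 0.074, adjusted p = 0.992). Rara, a retinoic acid receptor gene, had 11.1, 9.51, 9.47 and 10.2 CPM against 7.51, 8.96 and 8.67 CPM (log2 fold change 0.26, SE 0.13, adjusted p = 0.992). Neither was called, and each had the smallest p that the exact two-sided permutation test can give, 0.0286. Since both were picked for libraries that do not overlap, a p at or near that smallest value had to follow. It is no further evidence of a difference.

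Evx1 and Evx2, homeobox genes that flank the 5′ ends of the Hoxa and Hoxd clusters and are expressed in V0 interneurons, were low. Evx1 had 3.13, 1.73, 1.76 and 1.98 CPM in Neat1-KO libraries 1 to 4 and 1.63, 2.05 and 1.33 CPM in Neat1-WT libraries 2 to 4 (log2 fold change 0.35, SE 0.28, adjusted p = 0.992). Evx2 had 1.13, 0.766, 0.650 and 0.572 CPM against 0.724, 0.374 and 0.204 CPM (log2 fold change 0.80, SE 0.46, adjusted p = 0.992). Both were highest in Neat1-KO library 1, as was Hoxc9, and the genotypes overlapped for each.

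Between the Hox genes lie non-coding genes, many of them antisense. The annotation places 45 of these within the clusters or 5 kb of their ends, of which 26 were at 0 in every library and 11 were tested (median log2 fold change 0.086). None of the 11 was called, against 0.0325% of all genes tested. None had an unadjusted p under 0.05 in the edgeR fit, against 4.64% of all genes tested. Hoxb3os had the most counts, with 33.2, 38.1, 32.6 and 35.2 CPM in Neat1-KO libraries 1 to 4 and 32.5, 38.5 and 33.6 CPM in Neat1-WT libraries 2 to 4. The genotypes overlapped, and it cannot be told apart from Hoxb3 where their exons lie opposite each other if strand was not used. Hotair, of the silent caudal part of Hoxc, and Hoxa11os were at 0 throughout, as were the coding neighbours Hoxc11, Hoxc12 and Hoxa11.

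The clusters also hold the microRNA genes of the miR-10 and miR-196 families, which are shown because their places follow the same paralogue order and their best known targets are Hox mRNAs. Mature sequences are from RefSeq (GRCm38.p6), with the seed, bases 2 to 8, in capitals.
mmu-miR-10a-5p: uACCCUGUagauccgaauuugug
mmu-miR-10b-5p: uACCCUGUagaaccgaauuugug
mmu-miR-196a-5p: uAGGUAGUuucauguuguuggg
mmu-miR-196b-5p: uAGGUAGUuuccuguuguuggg
Each pair has 1 shared seed, ACCCUGU for miR-10a and miR-10b and AGGUAGU for miR-196a and miR-196b. The mature miR-10a-5p stretch lies at chr11:96317186-96317208, 1058 bases before Hoxb4, and that of miR-10b-5p at chr2:74726074-74726096 within the gene bodies of Hoxd3 and Hoxd4. The mature miR-196 stretches lie beside or in the paralogue 9 genes, that of Mir196a-1 at chr11:96265187-96265208 before Hoxb9, that of Mir196a-2 at chr15:102973365-102973386 between Hoxc10 and Hoxc9, and that of Mir196b at chr6:52230129-52230150 on the minus strand inside Hoxa9. Mir196b and Mir196a-2 had 0 counts in every library, and Mir10a, Mir196a-1 and Mir10b had at most 1, 3 and 8. Poly(A)-selected libraries do not measure mature microRNAs, so these counts say nothing of the mature forms.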

How the data were processed

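Per the labels and the study's methods, the authors made directional poly(A) libraries and sequenced them as paired-end reads. They trimmed the reads with Trimmomatic 0.38 after FastQC 0.11.7, aligned them to mm10 with HISAT2 2.1.0 and SAMtools 1.9, and deposited raw gene counts made by featureCounts 1.6.3. The annotation release and strand setting of the counting are not given in the sources used here. GENCODE M21 named 55141 of the 55487 gene IDs, and the other 346 held 0.00446% of counts.

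Counts were fitted across the whole table with edgeR 4.0.16 in R 4.3.3 (filterByExpr, TMM, glmQLFit and glmQLFTest, genotype the only term), with Benjamini-Hochberg adjustment over 18449 genes. The biological coefficient of variation was 0.128. Calls were made at an adjusted p under 0.1 with a log2 fold change beyond 0.58 in either direction. Standard errors are the absolute log2 fold change over the root of F. CPM used TMM-scaled totals, and levels were divided by merged exon length. The fits were tested on simulated counts. Alternatives were DESeq2 1.42.0, other filters, scaling, thresholds, lengths and index definitions, a replicate block and leaving out libraries.

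The members, lists and rules were chosen with earlier results of these data known. Library values were given for Hoxc4, Hoxa5, Hoxc6, Hoxc8 and Hoxc9, for the last detected and first undetected gene of each cluster, for genes with an unadjusted p under 0.05, and for genes with at least 20 counts that ranged over 2-fold. From other lists, genes were named where the unadjusted p was under 0.05 or counts were highest; further names were chosen after their values were seen. Depth was 19661878 to 26031517 counts per library, and counting intervals cover counting error only. Values of 1 Hox gene and of some listed genes are not reported here.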

Additional observations from a re-analysis of the deposited data

Results flagged for a closer look

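In the 4 Neat1-KO libraries, Hoxd4 in library 1 stood apart from the other 3. Its 2.47 CPM lay below values between 2.97 and 3.05 CPM, and the gap made up 0.860 of the whole range, above Dixon's 95% limit for 4 samples. The count behind it was 48, with a 95% Poisson interval of 1.82 to 3.27 CPM. All 7 libraries ran from 2.47 to 3.05 CPM and so lay within that interval of counting error. Of 29 values looked at in this way 1 was picked out, and chance picks about 1 in 20.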

How the results depend on the processing

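No setting called a Hox gene, and the lowest adjusted p over the 27 genes and all settings was 0.451. The number of all genes called was 6, and it became 124 with no filter on low counts, 27 with DESeq2, 19 without Neat1-KO replicate 1 and Neat1-WT replicate 2 (chosen after seeing the data), and between 3 and 31 when 1 library was left out, with Neat1-KO replicate 1 the one left out for 31, Neat1-WT replicate 3 for 3 and Neat1-WT replicate 4 for 11. Replicate numbers 2, 3 and 4 occur in both genotypes, and the labels do not say what the numbers mean. The deviations of same-numbered libraries did not go together (correlations -0.238, -0.162 and -0.0119, and 0 of 3 libraries matched its own number best). With 3 correlations of deviations centred within each genotype, this check showed no pairing but cannot exclude one. With the replicate block, 39 genes in all and 0 Hox genes were called, and Neat1-KO replicate 1 added nothing to that fit. The cause of these shifts was not tested. For Hoxc the limit moved from paralogue 9 to 10 when over 3 counts in 1 library sufficed, through Hoxc10. The caudal index was 1.23 and 1.20 (Neat1-KO and Neat1-WT) with no length, 1.20 and 1.16 per coding length, 1.38 and 1.21 in Hoxc alone, and 0.0975 and 0.102 for paralogues 9 to 13 over 4 to 8, where the order of the genotypes turned. With that last definition the lowest library was Neat1-KO replicate 2 (0.0843) and no longer Neat1-WT replicate 2 (0.0926).

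Of 351 log2 fold changes of single genes over the alternatives, 300 kept their sign, 10 of 27 genes in every one. The other 17 genes, Hoxc8 and Hoxc9 among them, changed sign in at least 1, with the value furthest from 0 at -0.23 (Hoxa10), and none was called in any setting. With DESeq2 factors Hoxa5 was -0.0015 and Hoxb7 -0.0048, with DESeq2 -0.0015 and -0.0049, and with no filter Hoxb7 was -0.0025. With the replicate block Hoxb7 was -0.022, Hoxb2 -0.016, Hoxb3 0.040 and Hoxb4 0.016. Without Neat1-KO replicate 1 and Neat1-WT replicate 2, Hoxb7 was -0.0099, Hoxb2 -0.033, Hoxb3 0.010, Hoxb4 0.0033, Hoxa9 -0.048, Hoxa10 -0.23, Hoxc8 -0.0039 and Hoxc9 -0.023. Leaving out 1 library at a time gave -0.14 to 0.56 for Hoxa2, -0.055 to 0.087 for Hoxa3, -0.14 to 0.13 for Hoxa4, -0.071 to 0.076 for Hoxa5, -0.0068 to 0.29 for Hoxa6, -0.030 to 0.26 for Hoxa9 and -0.17 to 0.42 for Hoxa10. It gave -0.014 to 0.10 for Hoxb2, -0.098 to 0.058 for Hoxb3, -0.090 to 0.063 for Hoxb4, -0.12 to 0.052 for Hoxb6, -0.12 to 0.10 for Hoxb7 and -0.14 to 0.012 for Hoxb9. It gave -0.085 to 0.073 for Hoxc6 and -0.018 to 0.37 for Hoxd3 (0.44 without both libraries named above). For Hoxc8 and Hoxc9 it gave 0.042 to 0.27 and 0.23 to 0.81.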
